A study of Mus musculus with 9 samples.

Results

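The sites described here are stretches of chromatin inside protein-coding genes, close to a transcript start but not on it, where MyoD1 was called bound in mouse muscle precursor cells. Peaks of 6 libraries were merged where they overlapped, which gave 58309 merged regions, and 18774 of these had a peak in at least 2 of the 6 lists. A region counted as one of these sites when its centre lay more than 1 kb and at most 10 kb from the nearest start of any annotated transcript, inside the body of a protein-coding gene and off coding exons (mm10, GENCODE M21 basic). There were 2364 such sites, 12.6% of the 18774 regions. Position alone chose them, and no signal value was used beyond the calls in at least 2 lists.

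The libraries are CUT and RUN, in which an antibody brings micrococcal nuclease to a chromatin protein and the DNA released around it is sequenced. The line was C2C12, cultured mouse myoblasts, with 3xFlag-Halo tagged MyoD1 at both endogenous alleles. It also carried an added 3xFlag-Halo MyoD1 transgene under a doxycycline-inducible promoter. The knock-in came from a single-cell clone, and the inducible transgene had been inserted by a transposon, so every library shares one clonal background. There were 3 biological replicates left without doxycycline (no dox) and 3 given it for 6 h (+dox). All of these cultures were moved to differentiation medium at the time of treatment, and the anti-Flag antibody read both sources of MyoD1. The labels say biological replicate and do not say what was separate, so the p-values measure the spread between these 6 libraries. A further 3 libraries from wild-type C2C12 were not analysed here, so no value below stands beside a background from untagged cells. The lists held between 9389 and 53661 peaks at depths between 2868000 and 8030000 alignments, and +dox replicate 3 was both the longest and the deepest.

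MyoD1 is a basic helix-loop-helix transcription factor that turns on muscle genes. It pairs with E proteins and binds the short palindromic element called an E-box, of the form CANNTG, with a preference for CAGCTG. Muscle enhancers often lie in introns near the promoter of the gene they serve, and binding of a factor in such an intron does not by itself show that the gene responds. AP-1 factors, dimers of Fos and Jun proteins, bind TGACTCA and are active at many enhancers of growing myoblasts.

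The sequences of 8 sites show what lay under the point of maximum signal. Each is 200 bases of the plus strand of GRCm38, the assembly behind mm10, about the centre of the stretch of highest coverage in the library where the site stood tallest. All 8 windows lay in introns and touched no annotated exon. Capitals mark CAGCTG and the AP-1 element, TGACTCA or its reverse complement TGAGTCA. The first set shows 4 of the 5 intronic sites that stood highest over the 6 lists. They lie at chr15:76461576-76461775 (Bop1), chr4:133013476-133013675 (Ahdc1), chr11:116825376-116825575 (Mxra7) and chr3:88630176-88630375 (Arhgef2).
Bop1: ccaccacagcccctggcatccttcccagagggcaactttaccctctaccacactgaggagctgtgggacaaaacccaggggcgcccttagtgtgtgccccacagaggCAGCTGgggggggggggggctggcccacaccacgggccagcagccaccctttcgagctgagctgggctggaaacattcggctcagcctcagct
Ahdc1: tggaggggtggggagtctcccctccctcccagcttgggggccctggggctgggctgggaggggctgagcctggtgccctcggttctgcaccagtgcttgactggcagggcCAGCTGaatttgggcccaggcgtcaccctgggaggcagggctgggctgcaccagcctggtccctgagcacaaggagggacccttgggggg
Mxra7: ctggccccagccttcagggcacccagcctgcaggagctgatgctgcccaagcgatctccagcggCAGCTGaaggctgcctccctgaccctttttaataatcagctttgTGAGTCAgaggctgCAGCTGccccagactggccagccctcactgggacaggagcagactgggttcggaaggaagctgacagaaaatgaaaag
Arhgef2: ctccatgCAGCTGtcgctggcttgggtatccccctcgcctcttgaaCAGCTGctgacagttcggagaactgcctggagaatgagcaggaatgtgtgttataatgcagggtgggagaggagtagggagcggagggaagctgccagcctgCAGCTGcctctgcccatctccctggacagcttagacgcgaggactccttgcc

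All 4 of these windows held CAGCTG, with 1 copy at Bop1 and Ahdc1, 2 at Mxra7 and 3 at Arhgef2. At Bop1 and Ahdc1 the centre of the E-box lay 10 and 13 bases from the point of maximum. The Mxra7 window held an AP-1 element between its E-boxes, whose centres lay 33 bases before and 25 bases after the maximum.

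The second set shows the 2 tallest intronic sites among those called in every +dox list and in none of the no dox lists, at chr7:19363976-19364175 (Ppp1r13l) and chr7:132841376-132841575 (Eef1akmt2), and the 2 sites with the lowest p for a higher signal with dox among those called in all 6 lists, at chr19:47508851-47509050 (Stn1) and chr17:27505626-27505825 (Grm4).
Ppp1r13l: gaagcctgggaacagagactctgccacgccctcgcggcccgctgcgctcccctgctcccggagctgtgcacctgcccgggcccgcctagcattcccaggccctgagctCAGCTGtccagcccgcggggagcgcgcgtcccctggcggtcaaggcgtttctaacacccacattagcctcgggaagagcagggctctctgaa
Eef1akmt2: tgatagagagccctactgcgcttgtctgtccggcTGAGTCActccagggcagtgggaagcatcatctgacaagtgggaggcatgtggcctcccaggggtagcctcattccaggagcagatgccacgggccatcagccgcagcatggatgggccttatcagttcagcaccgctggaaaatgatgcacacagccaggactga
Stn1: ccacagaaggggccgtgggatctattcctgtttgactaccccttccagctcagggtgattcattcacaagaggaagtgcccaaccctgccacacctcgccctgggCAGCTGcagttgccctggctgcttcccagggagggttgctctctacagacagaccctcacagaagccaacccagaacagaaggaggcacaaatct
Grm4: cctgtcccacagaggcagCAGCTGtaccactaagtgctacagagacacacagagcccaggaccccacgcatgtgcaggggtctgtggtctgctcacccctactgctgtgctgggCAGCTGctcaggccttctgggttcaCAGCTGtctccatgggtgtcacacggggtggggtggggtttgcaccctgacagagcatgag

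The Ppp1r13l and Stn1 windows each held 1 CAGCTG, 11 and 8 bases from the maximum. The Grm4 window held 3 copies. The Eef1akmt2 window held 1 AP-1 element and no CAGCTG.

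The sites were spread through the whole distance range, with 417 (17.6%) at 1 to 2 kb from a start, 950 (40.2%) at 2 to 5 kb and 997 (42.2%) at 5 to 10 kb. The median distance was 4348 bp. Most centres lay in introns, 2121 of 2364 (89.7%), and 1133 of these were in the first intron of a coding transcript. Another 141 lay on untranslated exon sequence and 102 inside the gene body but between its basic transcripts. The nearest start belonged to the host gene at 1333 sites (56.4%), to a non-coding gene at 816 (34.5%) and to another protein-coding gene at 215 (9.09%). A site inside a gene was therefore often closer to the start of a different transcript. At 2023 sites (85.6%) the centre lay downstream of the closest start of the host gene itself. At the inner edge, 109 sites between 1000 and 1200 bp had CAGCTG at the maximum in 41.3%, beside 47.4% of the 152 promoter regions at 800 to 1000 bp. At the outer edge the share was 35.3% of 153 sites between 9000 and 10000 bp and 54.1% of 157 genic regions between 10000 and 11000 bp. These edge shares take each region at the maximum of the library where it stood tallest.

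CAGCTG lay at the point of maximum, within 100 bp on either side, at close to 1 in 2 sites. The share was 51.3%, 45.5% and 39.2% of the sites called in no dox replicates 1, 2 and 3, and 50.4%, 53.0% and 45.1% in +dox replicates 1, 2 and 3. The 2 libraries numbered 3 were the lowest, and the groups overlapped. The mean was 47.4% ± 5.12 (SD, n = 6). Windows of the same length moved by 1 kb held CAGCTG in 12.2% ± 0.374 (SD, n = 6). The difference was 35.2 percentage points, above 0 in 6 of 6 libraries (two-sided exact test over sign flips, p = 0.03125, the smallest that 6 libraries allow, adjusted p = 0.075 over 12 tests). Any E-box of the form CANNTG was at 82.1% ± 1.10 of maxima and 67.8% ± 0.351 of moved windows (SD, n = 6). CAGGTG, an E-box that many helix-loop-helix and zinc finger factors also bind, was at 22.4% ± 1.17 of maxima and 19.7% ± 0.508 of moved windows (SD, n = 6), on either strand. Over whole sites extended by 100 bp, 2003 of 2364 (84.7%, 95% Wilson interval 83.2 to 86.1, counting error only) held a CAGCTG somewhere, beside 74.3% of all 18774 regions. Other distal classes were alike, with 85.5% of genic regions beyond 10 kb. The share was 81.2% of intergenic regions at 1 to 10 kb and 82.9% of those beyond 10 kb. Promoter regions had 62.6%. The median width of the sites was 1400 bp.

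The E-boxes gathered tightly about the maximum. In the no dox libraries there were 19.4 ± 3.73 copies of CAGCTG per 100 sites in the 50 bp just past the point of maximum, and in the +dox libraries 21.1 ± 2.64 (SD, n = 3 each). At 950 to 1000 bp before the maximum the no dox value was 3.11 ± 0.319 (SD, n = 3). Promoter regions, with their centre within 1 kb of a start, reached 10.1 ± 0.453 and 9.60 ± 0.334 in the same 50 bp (SD, n = 3 each).

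**Figure D1:**
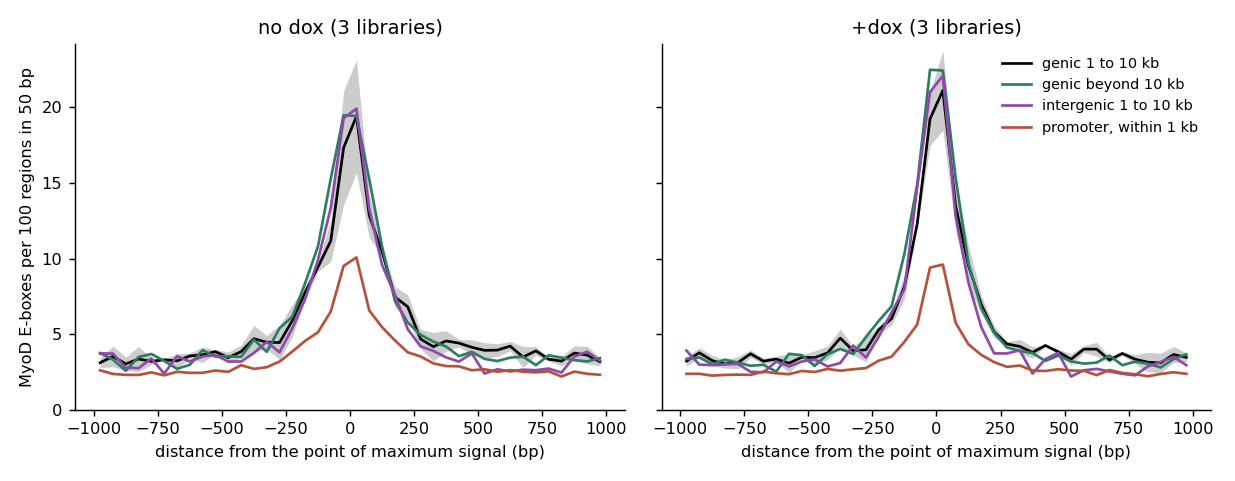
Copies of CAGCTG per 100 regions in bins of 50 bp (y axis) against the distance in bp from the point of maximum signal (x axis), as the mean of the 3 no dox libraries (left) and the 3 +dox libraries (right). The black line is the genic sites 1 to 10 kb from starts with its SD over 3 libraries as a band. It peaks at 19.4 and 21.1 copies, with promoter regions at 10.1 and 9.60 in the same bin.

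AP-1 elements were at 15.4%, 13.7% and 13.2% of the site maxima in no dox replicates 1, 2 and 3, and at 17.0%, 17.8% and 17.2% in +dox replicates 1, 2 and 3. The +dox libraries were all above the no dox libraries, a split for which no test was run. Genic regions beyond 10 kb split the same way, from 14.4% to 18.2% without dox and from 18.4% to 19.5% with dox. At intergenic regions 1 to 10 kb from starts the groups overlapped. Moved windows held the element in 3.65% ± 0.166 (SD, n = 6). Both elements together were at 7.71% ± 1.44 of maxima and neither was at 44.6% ± 5.27 (SD, n = 6). So a large part of the called sites had no match to either element in the 200 bp at the maximum. A window without a match shows only that these letters are absent from it.

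The motif content of the sites lay further from that of promoters than from that of other distal regions. CAGCTG was 22.0 percentage points more frequent at the sites than at promoter regions, whose share was 25.4% ± 1.52 (SD, n = 6; two-sided exact sign-flip p = 0.03125, adjusted p = 0.075). AP-1 elements were 12 points more frequent than at promoters, which held them in 3.74% ± 0.395 (SD, n = 6; two-sided exact sign-flip p = 0.03125, adjusted p = 0.075). Both differences had the same sign in 6 of 6 libraries. The libraries read many of the same sites, and +dox replicate 3 held 98.3% of them. The 6 differences, here and against moved windows, are therefore not fully independent. Over 3 pairs of same-numbered libraries the smallest possible p would be 0.25. Base composition moved with them: the median GC content of the 200 bp was 57.7% ± 1.75 at the sites and 65.5% ± 2.14 at promoters (SD, n = 6), and its part in the difference was not tested. Against genic regions beyond 10 kb the differences were -4.35 points for CAGCTG (51.8% ± 6.25 in the far regions) and -1.94 points for the AP-1 element (17.6% ± 1.93 there), below 0 in 6 of 6 libraries for each (SD, n = 6; two-sided exact sign-flip p = 0.03125, adjusted p = 0.075 for both). Against intergenic regions at the same distance, 1 to 10 kb from starts and outside protein-coding genes, the differences were -2.42 points for CAGCTG and -1.56 points for the AP-1 element, each below 0 in 5 of 6 libraries (two-sided exact sign-flip p = 0.0625, adjusted p = 0.0938 for both). The first of these was 0.173 points without +dox replicate 3. No comparison of motif content passed an adjusted p of 0.05. With 6 libraries the sign-flip p cannot lie under 0.03125, and here that p gave an adjusted p of 0.075 whatever the size of the difference. Not passing therefore does not show that a difference was small.

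Within genes the change with distance ran through the inner part of the window. CAGCTG was at 21.9% ± 1.66 of genic region maxima within 250 bp of a start, at 42.9% ± 2.86 of the 240 sites at 1 to 1.5 kb and at 49.1% ± 6.39 of the 367 sites at 2 to 3 kb (SD, n = 6). GGGCGG, the GC box that Sp-family factors bind in promoters, searched on both strands, went the other way. It was at 65.4% ± 7.0 within 250 bp, 36.2% ± 9.76 at 1 to 1.5 kb and 16.7% ± 2.93 at 3 to 4 kb (SD, n = 6). AP-1 elements were at 2.67% ± 0.253 within 250 bp and at 14.2% ± 1.28 at 1 to 1.5 kb (SD, n = 6). From 2 to 10 kb the bin means for CAGCTG lay between 44.1% and 51.4%, with SDs over 6 libraries between 5.51 and 6.61 points. The same 6 libraries fed every bin, and differences between bins within a library were not computed. These are descriptions with no test. The positional classes of the sites had CAGCTG shares with means of 42.8% at 1 to 2 kb, 49.2% at 2 to 5 kb, 47.9% at 5 to 10 kb, 47.9% in first introns, 47.0% in later introns, 50.8% on untranslated exons and 40.9% between transcripts, and SDs over 6 libraries between 2.28 and 6.52 points.

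**Figure D2:**
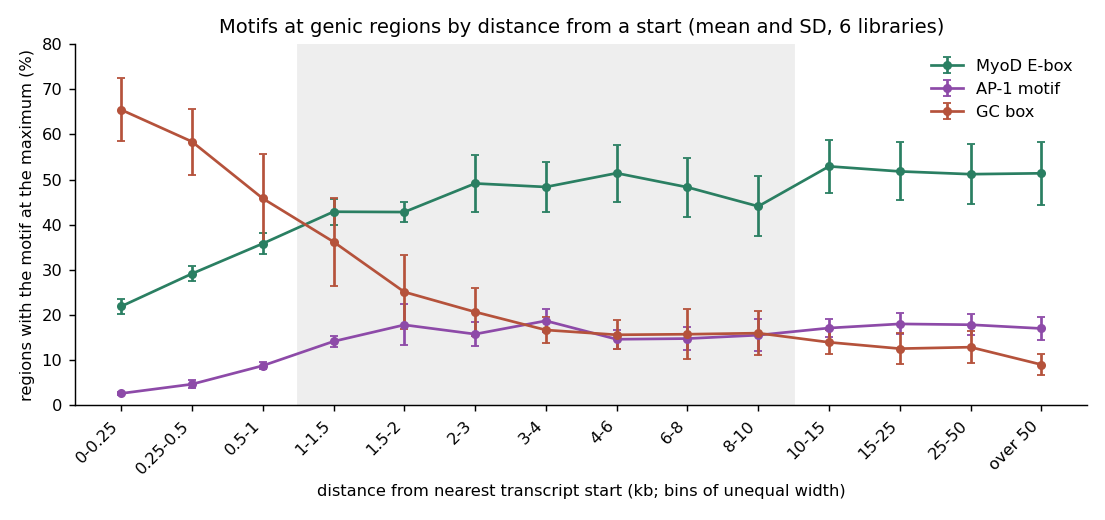
Share of genic regions off coding exons with the MyoD E-box, the AP-1 motif or the GC box within 100 bp of the maximum (y axis, percent) against distance from the nearest transcript start (x axis, bins of unequal width in kb). Points are means and bars SDs over 6 libraries, and the grey band marks the sites at 1 to 10 kb, where the E-box goes from 42.9% to 44.1% through a highest bin mean of 51.4% and the GC box from 36.2% to 16.0%.

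Sites with an E-box stood taller in their lists. Height is given as a percentile of maximum signal among all peaks of the same list, so that 50 is the median peak. The median percentile of all called sites was 53.3, 56.2 and 55.3 in no dox replicates 1, 2 and 3, and 49.3, 54.4 and 81.1 in +dox replicates 1, 2 and 3. The last value stands apart and comes from the list of 53661 peaks. Sites with CAGCTG at the maximum had medians of 67.5, 69.9, 70.0, 58.4, 63.2 and 87.4 in the same order. Sites without it had medians of 36.6, 44.9, 47.9, 40.6, 46.9 and 73.2, lower in 6 of 6 libraries. The AP-1 element went with a smaller gap, 65.9 ± 10.6 with it and 56.6 ± 11 without it (mean of library medians, SD, n = 6). The E-box was also more frequent in sites called more often: 33.5% of the 988 sites called in 2 lists, 41.6% of 361 in 3, 49.8% of 217 in 4, 47.2% of 254 in 5 and 61.8% of 544 in 6. The AP-1 share went from 16.1% in 2 lists to 17.6% in 6, with a highest value of 21.7% in 4. Median width went from 1200 bp in 2 lists to 1950 bp in 6. In these shares by number of lists each site had 1 window, at the maximum of the library where it stood tallest. By that measure 44.2% of all sites had CAGCTG. Of the sites called in 2 lists, 96.6% had a peak in +dox replicate 3. Calls and heights come from the same coverage, so these counts are given as descriptions with no test.

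**Figure D3:**
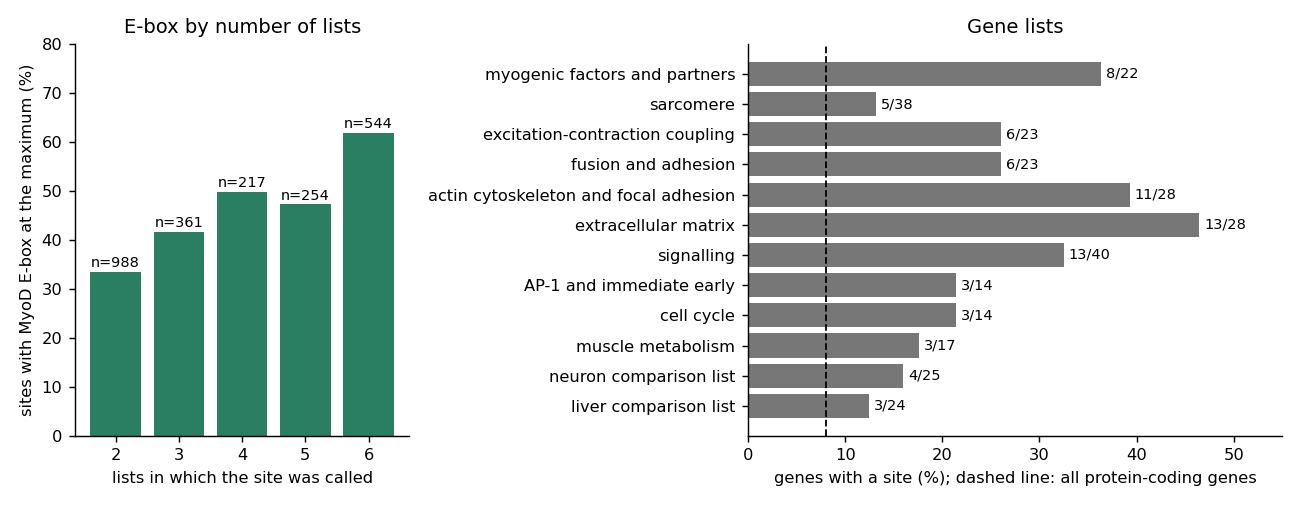
Left, share of sites with the MyoD E-box within 100 bp of the maximum (y axis, percent) by the number of lists in which the site was called (x axis), from 33.5% in 2 lists to 61.8% in 6. The maximum is that of the library where the site stood tallest. Right, share of the genes of each list that hold at least 1 site (x axis, percent, with counts), from 12.5% for the liver list to 46.4% for extracellular matrix, with a dashed line at the 8.06% of all protein-coding genes.

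The sites were lower in their lists than other distal regions in most libraries, without passing the test. The difference in median percentile was -4.28 from intergenic regions at 1 to 10 kb (62.6 ± 11.5), below 0 in 5 of 6 libraries and 0 in 1 (two-sided exact sign-flip p = 0.0625, adjusted p = 0.0938). It was -2.86 from genic regions beyond 10 kb (61.1 ± 12.2), below 0 in 4 of 6 and 0 in 2 (SD, n = 6; two-sided exact sign-flip p = 0.125, adjusted p = 0.167). Neither difference passed the threshold. Without +dox replicate 3 the first was -2.29, with lists of equal length they were -1.20 and 0.249, and by total signal -1.03 and -0.17. Same-numbered libraries of the 2 groups deviated together, so the 6 differences are not fully independent, and over 3 pairs the smallest possible p would be 0.25.

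The number of sites called per library was 930, 1347 and 1566 in no dox replicates 1, 2 and 3 and 1012, 1282 and 2324 in +dox replicates 1, 2 and 3. Without the last library the groups ran through one range. The deepest library held 98.3% of all 2364 sites, where it held 96.7% of all 18774 regions. A peak only in the 2 libraries numbered 3 was found at 478 sites (20.2%), where the background was 12.8%. The other 4 libraries gave at least 2 calls at 1203 sites (50.9%, background 63.9%) and 4 calls at 607 (25.7%, background 33%). As a share of the list, peaks in the sites were 10.8%, 10.6% and 12.2% without dox and 9.08%, 10.8% and 4.61% with dox. The last share was lowered by the rule that a region be called in at least 2 lists. Regions that met the rule took 35.7% of the peaks of +dox replicate 3 and between 83.6% and 96.2% of those of the other lists, and the shares of all 6 region classes were lowest there. Of the peaks in such regions, those in the sites were 11.3%, 11.8% and 14.6% without dox and 9.52%, 11.2% and 12.9% with dox, which overlap. No comparison between the groups is drawn from the shares of the whole lists.

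**Figure D4:**
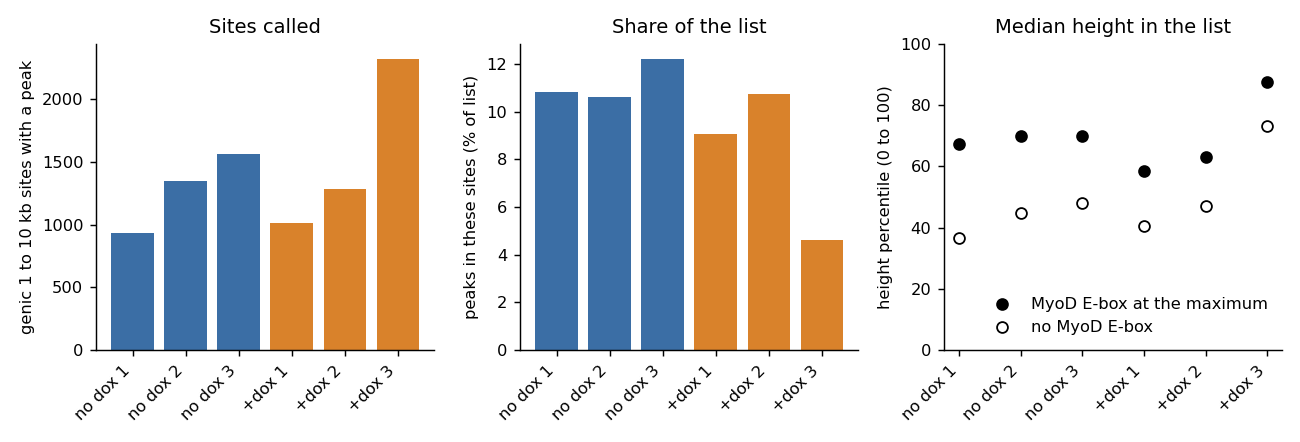
Per library, the number of genic sites 1 to 10 kb from starts with a peak (left), the share of the list's peaks in them in percent (middle) and the median height percentile of sites with and without the MyoD E-box at the maximum (right). Blue bars are no dox and orange bars +dox. Sites with the E-box are higher in each library, and the low 4.61% of +dox replicate 3 in the middle panel follows from the rule of at least 2 lists, which 35.7% of its peaks met.

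Sites in the consensus of the no dox lists, called in 2 or 3 of them and named Core here, numbered 1087 (46.0%), where 50.2% of all 18774 regions were Core. Expanded sites, called in 2 or 3 +dox lists and in fewer than 2 no dox lists, numbered 542 (22.9%), where the background was 28.4%. Of the Expanded sites 540 had a peak in +dox replicate 3, a library that held 96.7% of all 18774 regions. In the other direction 172 sites (7.28%) were called in 2 or 3 no dox lists and fewer than 2 +dox lists, where the background was 5.11%. The sites in neither class had, by these definitions, 1 call in each group, and numbered 735 (31.1%), where the background was 21.4%. CAGCTG was at the maximum of 52.9%, 50.7% and 44.6% of Core sites in no dox replicates 1, 2 and 3, and of 41.6%, 45.8% and 40% of Expanded sites in +dox replicates 1, 2 and 3. The lowest Core value lay below the highest Expanded value. The means, 49.4% ± 4.30 and 42.5% ± 2.98 (SD, n = 3 each), differed by 6.94 points (two-sided exact permutation p = 0.2, adjusted p = 0.218). With every list cut to the same length the difference was 2.71 points. Over whole peaks it was 14 points and with no dox replicate 3 left out 11.5 points. For whole peaks and without that library the two-sided exact permutation p was 0.1 (adjusted p = 0.1375 and 0.167). With 3 libraries against 3, or fewer, no p under 0.1 is possible, so this difference could not pass the adjusted test in any setting. Not passing therefore does not show that it was small.

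A stricter pattern, a call in all 3 +dox lists and in none of the no dox lists, was found at 55 sites (2.33%), where 3.38% of all regions had it. The reverse was found at 1 site (0.0423%), where the background was 0.0266%. With each list cut to its 9389 tallest peaks the counts were 10 and 11. Without +dox replicate 3 they were 52 and 30, where the pattern was looser because only the +dox lists that were kept had to agree. The shares of all regions were not computed under these settings, so these counts have no background beside them. The 10 sites of the first pattern with the highest mean percentile over the +dox lists lay in Prss53, Ppp1r13l, Eef1akmt2, Srrm4, Gxylt2, Plxna1, Kifc3, Crispld2, Ccdc88c and Ubap2, and 6 of the 10 had CAGCTG at the maximum. Their percentiles lay above the middle of the lists on average, from 67.3 to 82.1 over the +dox lists. The site on untranslated sequence of Prss53, a serine protease gene, reached 18.1, 16.1 and 6.97 CPM in +dox replicates 1, 2 and 3, at percentiles of 76.8, 80.6 and 88.9. The site in the first intron of Ppp1r13l, which encodes the p53 inhibitor iASPP, reached 19.2, 15 and 3.24 CPM. The site in Eef1akmt2, a lysine methyltransferase gene for an elongation factor, reached 8.37, 17.8 and 7.97 CPM, and it also lies in the long annotated body of Fgfr2. In Plxna1, a semaphorin receptor gene, the first-intron site reached 13.9, 10.6 and 4.23 CPM. In Srrm4, which encodes a splicing regulator of neurons, the site lay on untranslated sequence and reached 17.4, 8.90 and 5.48 CPM. In all 5 of these the deepest library had the lowest CPM value. The 1 site of the reverse pattern lay in an intron of Puf60, a splicing factor gene, with 2.33, 1.81 and 2.14 CPM in the no dox lists at percentiles of 6.80, 3.61 and 27.5, and with no CAGCTG in the region.

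Signal was compared at the 544 sites called in all 6 lists, 23.0% of the 2364, where 25.8% of all regions were called in 6. This condition leaves out every site without a no dox call. The median maximum signal of these sites was 8.38, 9.93 and 7.29 CPM in no dox replicates 1, 2 and 3 and 13.9, 16.1 and 13.9 CPM in +dox replicates 1, 2 and 3, so each +dox median was above each no dox median. The log2 difference, +dox minus no dox, had a median of 0.79 over the 544 sites and 0.91 over all 4838 regions called in all 6 lists. It was 1.00 at promoters, 0.84 at intergenic regions 1 to 10 kb from starts and 0.79 at genic regions beyond 10 kb. CPM scales each library to the same total and carries no spike-in, so a shift shared by all regions cannot be told apart from a difference in background between libraries. With each library centred on its own median over all regions, the median of the sites was -0.14.

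Sites were tested one by one with limma on log2 maximum signal, in a main model that left out the replicate number. In it 0 of the 544 sites passed an adjusted p of 0.05 in either direction, where 0 (0%) of the 4838 regions did. At an unadjusted p under 0.05 there were 111 sites (20.4%), all higher with dox, where the background was 23.9%. All 3 +dox values lay above all 3 no dox values at 178 sites (32.7%), where 27.5% of all regions had this order, and the opposite order was found at 0 sites. With the replicate number as a block, 244 sites (44.9%) rose and 0 fell, where 52% of all regions rose and 0.103% fell. With the block 289 sites had an unadjusted p under 0.05, where the background was 60.5%. With centred libraries 0 sites passed, without the block and with it, where 0% and 0.0207% of all regions did, and without the block 23 (4.23%) had an unadjusted p under 0.05, 2 of them higher and 21 lower, where the background was 2.56%. Without +dox replicate 3 138 sites (25.4%) rose, where the background was 39.4%, and 0 fell, where it was 0.103%. The count of risen sites thus rested on the block, the scaling and 1 library, and with the block or without that library the share of sites was below that of all regions. Within the lists, the mean percentile of the 544 sites was 66.2, 76.6 and 77.0 without dox and 64.2, 73.4 and 93.0 with dox. The means of 73.3 ± 6.14 and 76.9 ± 14.7 (SD, n = 3 each) differed by 3.59 (two-sided exact permutation p = 0.9, adjusted p = 0.9), and the difference was -4.90 without +dox replicate 3. The percentile of a site also depends on the length of its list, and with lists of equal length the difference was -3.74 (two-sided exact permutation p = 0.1, the smallest that 3 libraries against 3 allow, adjusted p = 0.2).

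Of the 15 sites with the highest mean percentile over the 6 lists, 14 are described here, in Bop1, Ahdc1, Mxra7, Arhgef2, Ltbp4, Tpcn1, Lrp5, Tnfrsf1b, Gse1, Lgals1, Syn3, Prrc2b, Acot7 and Slc25a26. Of these, 13 were in introns and 1, in Slc25a26, on untranslated sequence. CAGCTG was at the maximum in 13 of the 14. The first lay in an intron of Bop1, which encodes a ribosome biogenesis factor, 4706 bp from the start of Scx, the gene of the tendon factor scleraxis. It reached 129, 133 and 60.4 CPM without dox and 364, 228 and 124 CPM with dox, and the region held 13 copies of CAGCTG. The lowest +dox value lay below 2 of the no dox values. Its log2 difference was 1.10 ± 0.62 (SE; limma adjusted p = 0.229).

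The site in Ahdc1, an AT-hook protein gene, lay in the first intron 1822 bp from its own start and reached 127, 151 and 56.6 CPM without dox and 313, 230 and 118 CPM with dox. The site in the first intron of Mxra7 reached 144, 148 and 41.1 CPM without dox and 396, 294 and 125 CPM with dox. In Arhgef2, a RhoA exchange factor gene, the values were 122, 116 and 45.4 CPM and 192, 174 and 123 CPM. At all 3 of these sites the libraries numbered 3 were the lowest of their group, and the groups overlapped at the first 2.

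Receptor and matrix genes were among the other tall sites. Lrp5, a Wnt co-receptor gene, held a first-intron site 5255 bp from its start with 96.6, 97.5 and 31.3 CPM without dox and 268, 158 and 70.0 CPM with dox. Ltbp4, whose protein binds latent TGF-beta in the matrix, held one 1303 bp from its start with 110, 107 and 36.0 CPM and 308, 196 and 88.4 CPM. Tnfrsf1b, a TNF receptor gene, held one with 76.8, 91.7 and 36.9 CPM and 160, 155 and 95.1 CPM. In Tnfrsf1b all +dox values lay above all no dox values, with 1.06 ± 0.59 on the log2 scale (SE; limma adjusted p = 0.226). The site in Lgals1, the gene of galectin-1, reached 80.7, 82.6 and 30.9 CPM and 162, 175 and 94.1 CPM, and held 3 E-boxes and 1 AP-1 element at the maximum. The site in Tpcn1, an endolysosomal channel gene, reached 89.8, 98.9 and 29.6 CPM and 333, 182 and 87.2 CPM.

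The 5 sites with the lowest p for a higher signal with dox did not pass the adjusted test (limma adjusted p = 0.208 for each). The one in Stn1, a gene of the telomere-capping CST complex, had 12.6, 12.6 and 4.71 CPM without dox and 80.2, 55.6 and 19.7 CPM with dox, so that the groups did not overlap. Its log2 difference was 2.29 ± 0.62 (SE), and 1.36 after centring. The one in Grm4, a glutamate receptor gene, had 5.58, 4.97 and 1.71 CPM and 16.0, 20.6 and 8.72 CPM, with 1.97 ± 0.60 (SE). Sh2b3, an adaptor gene of cytokine signalling, had 5.12, 5.87 and 3.43 CPM and 27.2, 13.1 and 12.2 CPM. Padi1, a peptidylarginine deiminase gene, and Wnt9a, a Wnt ligand gene, had log2 differences of 1.74 ± 0.58 and 1.67 ± 0.56 (SE). The 5 sites with the lowest p for a lower signal lay in Efhd1, Nfix, Bcar3, Pald1 and Ppard, with log2 differences between -0.71 and -0.41 and limma adjusted p between 0.317 and 0.532. The Efhd1 site had 6.98, 6.32 and 3.43 CPM without dox and 2.79, 3.34 and 3.74 CPM with dox, and the groups overlapped. After centring its difference was -1.63.

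**Figure D5:**
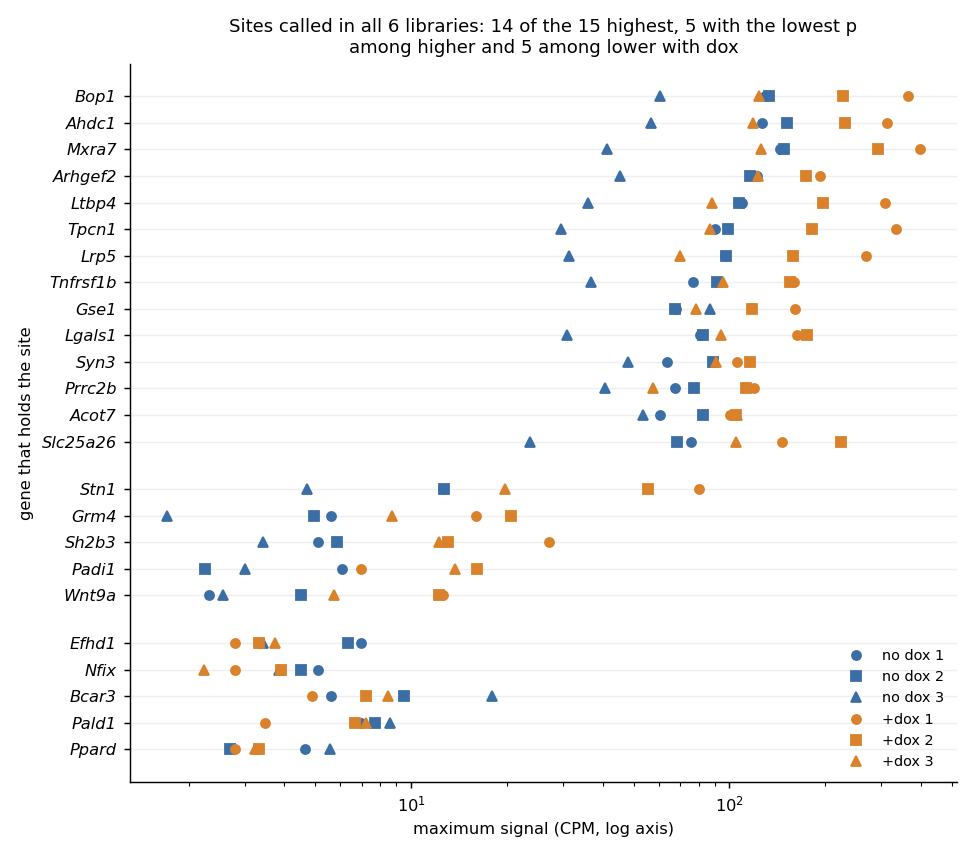
Maximum signal in CPM on a log axis (x axis) at 24 sites called in all 6 libraries, by the gene that holds the site (y axis), with 1 point per library, blue for no dox and orange for +dox. The upper block is 14 of the 15 sites with the highest mean percentile, the middle block the 5 with the lowest p for a higher signal with dox and the lower block the 5 with the lowest p for a lower one. At Stn1 the +dox points lie from 19.7 to 80.2 and the no dox points from 4.71 to 12.6.

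The 2364 sites lay in 1767 protein-coding genes, 8.06% of the 21924 annotated, with 1 site in 1314 genes and 2 in 306. Long genes held a site more often, from 0.375% of genes up to 2 kb in length to 16.7% of genes over 100 kb. The largest counts came from annotation models of unusual length. Gm20388, a predicted gene with a model of 4435 kb, held 38 sites, of which 19 lay in no other protein-coding gene, and Fgfr2, a receptor gene with a model of 2961 kb, held 14, of which 6 lay in no other. After these came Nfix, a nuclear factor I gene of fetal muscle, with 10 sites in 100.5 kb, 6 of them called in all lists. Sept9, a septin gene, and Rfx1, a transcription factor gene, held 7 each, and Hdac7, Nav2, Nfic, Gnao1 and Dagla held 6 each. Within such a gene heights were unequal. In Nfix 1 site, at chr8:84729301-84732400, had a mean percentile of 94.5 and the other 9 lay between 17.7 and 51.6. In Rfx1 all 7 lay between 31.9 and 51.0.

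Among lists of genes by role, the shares with a site are given beside the 8.06% of all protein-coding genes. The lists were chosen with results of these data known, their genes differ in length, and no test was run on them. Of 22 myogenic factors and partners, 8 held a site, among them Mef2d, Myf5, Runx1, Six4, Srf, Tcf3 and Tead1, with 14 sites in all, 7 of them Core. Myod1, Myog, Mef2a, Pax7 and the Id genes held none. A gene without a site can still have regions within 1 kb of a start, on coding exons, beyond 10 kb or outside its body. Absence here, and in the lists below, is therefore not absence of binding. The tallest of these lay in an intron of Srf, the gene of serum response factor, a partner at contractile genes, with 55.4, 74.1 and 51.0 CPM without dox and 144, 89.5 and 102 CPM with dox. All +dox values were above all no dox values (log2 difference 0.88 ± 0.56, SE, limma adjusted p = 0.261). The site in Runx1, a factor of regenerating muscle, had 28.4, 60.1 and 31.3 CPM and 19.2, 43.4 and 66.2 CPM, and its log2 difference was 0.02 ± 0.60 (SE).

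Of 38 sarcomere genes 5 held a site (13.2%). Flnc, the gene of the Z-disc protein filamin C, had 14.9, 24.8 and 12.9 CPM without dox and 37.0, 39.5 and 24.9 CPM with dox. Myh3, the embryonic myosin gene, was called in 2 no dox lists at 7.45 and 7.68 CPM and in all +dox lists at 18.8, 22.2 and 9.71 CPM. Ttn and Neb, the titin and nebulin genes, Acta1, Actc1 and the listed troponin genes other than Tnnt1 held none. Of 23 genes of excitation-contraction coupling 6 held a site (26.1%), and 4 of the 7 sites were Expanded, beside 22.9% of all 2364 sites. The first-intron site of Cacng1, a subunit gene of the muscle calcium channel, had 13.5, 22.1 and 12.9 CPM and 39.1, 60.9 and 47.3 CPM, with groups that did not overlap (log2 difference 1.62 ± 0.55, SE, limma adjusted p = 0.208). Ryr1, the calcium release channel gene, was called in 1 no dox list at 5.42 CPM and in the +dox lists at 8.37, 8.34 and 4.48 CPM.

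Of 23 fusion and adhesion genes 6 held a site (26.1%), with 10 sites, 5 of them Core and 0 Expanded, beside 46.0% and 22.9% of all sites. The first-intron site of Cdh15, the M-cadherin gene, had 81.9, 84.9 and 19.3 CPM without dox and 225, 151 and 73.7 CPM with dox, and its region held 10 copies of CAGCTG (log2 difference 1.41 ± 0.66, SE, limma adjusted p = 0.208). The site in Mymk, the gene of the fusion protein myomaker, was called at 9.77 and 5.14 CPM in no dox replicates 1 and 3 and at 12.6, 16.7 and 13.9 CPM with dox. In Itga3, an integrin gene, the values were 9.31, 13.1 and 6.00 CPM and 9.07, 8.34 and 10.5 CPM, with a log2 difference of 0.04 ± 0.55 (SE).

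Of 28 genes of the actin cytoskeleton and focal adhesions 11 held a site (39.3%), among them Lmna, the lamin A/C gene, with 14.4, 9.93 and 9.0 CPM and 54.0, 30.6 and 14.5 CPM. Of 28 extracellular matrix genes 13 held one (46.4%), the highest share of the lists, with 20 sites, 13 Core and 0 Expanded, beside the same 46.0% and 22.9%. The site in Col4a2, a basement membrane collagen gene, had 11.2, 16.3 and 17.1 CPM and 16.0, 22.2 and 15.1 CPM, which overlap. Of 40 signalling genes 13 held one (32.5%). Hdac7, a class II deacetylase gene, had 21.4, 28.0 and 13.3 CPM and 74.6, 50.6 and 19.7 CPM at its tallest site, and Notch3, a receptor gene, had 10.2, 14.5 and 9.43 CPM and 34.2, 32.3 and 18.7 CPM.

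The smaller lists gave few sites. AP-1 and immediate early genes held one in 3 of 14, cell cycle genes in 3 of 14 and muscle metabolism genes in 3 of 17. In Ccnd3, a D-type cyclin gene, the site had 58.6, 59.2 and 27.0 CPM without dox and 61.0, 113 and 69.7 CPM with dox. In Mb, the myoglobin gene, it had 17.2, 36.1 and 53.1 CPM and 18.8, 34.5 and 77.2 CPM, with overlapping groups. Of the comparison lists, 4 of 25 neuron genes (16.0%) and 3 of 24 liver genes (12.5%) held a site, and of these 7 sites 1, in Rbfox3, was called in all 6 lists. Both shares were above that of all protein-coding genes, so a share above 8.06% is not particular to muscle lists. The median gene length was 69.0 kb in the neuron list, 10.7 kb in the liver list and 52.1 kb in the extracellular matrix list, beside 17.4 kb over all protein-coding genes.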

How the data were processed

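CUT and RUN libraries from 3 no dox and 3 +dox cultures were analysed, and 3 libraries of wild-type cells were not analysed here. Reads had been aligned to mm10 and blacklist-filtered by the authors through nf-core/cutandrun 3.2.2, and peaks called in each library by SEACR in relaxed mode on CPM-scaled coverage. The deposited lists give each peak's total and maximum signal (coverage in CPM) and the interval of maximum signal. No control library for the calling is named in the sources used here, and depth was read from the steps of the signal. Because CPM carries no spike-in, a change of MyoD1 signal shared by all regions is not measured.

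Peaks of the 6 lists were merged where they overlapped, and regions called in at least 2 lists were placed by GENCODE M21 basic. The members and the gene lists were chosen with earlier results of these data known. Elements were counted within 100 bp of the centre of the maximum interval, and sequences are 200 bases of RefSeq's GRCm38. Comparisons between region classes used exact sign-flip tests over 6 libraries and comparisons between groups exact permutation tests, all two-sided, with Benjamini-Hochberg adjustment over 12 tests. Signal was tested with limma 3.58.1 (R 4.3.3), with a variance trend, on log2 maximum signal with no pseudocount at regions called in all lists, and the test was checked on simulated data. Other steps ran in Python 3.11.15 with SciPy 1.17.1, pandas 2.3.3 and NumPy 2.4.6. Same-numbered libraries deviated together from their group means over the members (r = 0.42, 0.31 and 0.62, across regions). The main limma model and the main permutation tests left this pairing out. A block for the replicate number was run as a further setting. Named sites are the 15 with the highest mean percentile among those called in 6 lists, the 10 highest called in the +dox lists alone, every site called in the no dox lists alone, the 5 with the lowest p in each direction, the genes with most sites, and up to 4 tallest sites per gene list. A site and a listed gene covered by these rules are not reported here by name.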

Additional observations from a re-analysis of the deposited data

How the results depend on the processing

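Of 214 recomputed values, 183 stayed as in the main setting, 22 counts moved and 9 differences reversed. Staying meant the same direction and side of the threshold for a tested difference, and a value close to the main one for a site count. For a limma count it meant the same value. No exact test passed an adjusted p of 0.05 under any setting. Comparisons between the groups could not pass in any, as 3 libraries against 3 allow no p under 0.1. With 1 library left out the smallest sign-flip p was 0.0625, so the side of the threshold could not change there. With all 6 libraries, the smallest sign-flip p of 0.03125 gave an adjusted p of 0.075 in the main setting. Leaving out 1 library at a time gave 1463 to 2307 sites (2364 with all), 52 to 186 sites called in every +dox list alone (55), 2 to 30 called in every no dox list alone (1), 0 to 138 sites changed in limma (0), a height difference of -4.90 to 10.1 at sites called in 6 lists (3.59) and a CAGCTG difference from intergenic regions of -2.72 to 0.173 points (-2.42). The values 1463, 30, 138, -4.90 and 0.173 were without +dox replicate 3. For sites called in one group alone, every list means every list that was kept, and shares of all regions were not computed for these settings. Without both libraries numbered 3 there were 1279 sites, 60 called without dox alone and 141 changed (25.9%, where 35.3% of all regions rose), with a height difference of -2.24 and a CAGCTG difference of 1.01 points. With each list cut to its 9389 tallest peaks there were 1324 sites, 10 and 11 called in one group alone, a height difference of -3.74 and one of 0.249 from genic regions beyond 10 kb. Calls in at least 3 lists left 1376 sites. A limit of 5 kb left 1367 sites and 29 called with dox alone, and the AP-1 difference from intergenic regions was 0.299 points. With starts of protein-coding genes alone these were 34 and 0.506 points. Over whole peaks the CAGCTG difference from intergenic regions was 2.21 points. The replicate block gave 244 sites changed in limma. It changed no other call, and over 3 pairs the exact tests could not have passed. The cause of these changes was not tested. Centring with the block was chosen after seeing the data. Sites absent without dox are outside the signal test.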
